A study of Rattus norvegicus with 3 samples.

Results

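Environmental enrichment (EE) was compared with standard housing (SH) in the rat basolateral amygdala (BLA) by RNA sequencing of tissue punches. Genes were taken where the deposited table called them protein coding and where the mean of the EE, enrichment removal (ER) and SH libraries was at least 50 scaled counts, a scaled count being a read count divided by a library size factor. This gave 13386 of the 16797 protein-coding genes and of the 19113 genes listed. Just outside the limit were Gmnc and Pzp, with means of 49.94 and 49.98, and just inside it were Slc10a1 and Ifi47, with means of 50.1 and 50.2. All rats were adult male Sprague-Dawley animals, 8 weeks old on arrival. EE rats lived in a large multi-level cage with toys, in a group of 10 during the active cycle and singly otherwise, until collection. ER rats had 4 weeks of the same enrichment, were then moved to single cages, and were collected 2 weeks later with the other groups. SH rats of this cohort were pair-housed, so enrichment, group living and solitary rest cannot be told apart in EEvSH.

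Each group was 1 library made from the pooled RNA of 10 rats. The difference between rats is therefore unknown, no test of EE against SH is possible, and every ratio below carries only an exact 95% binomial interval for counting error. Fewer cells of a type and less RNA per cell cannot be told apart in tissue punches. The libraries held 29263063 reads in EE, 29558555 in ER and 30334384 in SH, of which the genes described took 97.62% in EE, 97.61% in ER and 97.62% in SH. Mitochondrially encoded genes took 8.19% of reads in EE, 8.32% in ER and 7.97% in SH.

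The BLA is a mostly glutamatergic nucleus in which projection neurons resembling those of cortex are controlled by local GABA interneurons, many of them wrapped in perineuronal nets of chondroitin sulphate proteoglycan. It attaches emotional value to cues and takes part in fear, reward and stress responses. It lies beside the central amygdala and the tail of the striatum, whose GABA neurons use dopamine, opioid and other peptide signals, and it is bordered by myelinated fibre tracts. Enriched housing is known in rodents for added social, physical and sensory stimulation and for effects on plasticity.

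The labelled tissue carried its defining markers at similar levels in all libraries. Slc17a7, the vesicular glutamate transporter of cortical-type projection neurons, had 57766 scaled counts in EE, 58098 in ER and 57756 in SH, a ratio of 1.00 (0.989 to 1.01). The BLA projection neuron markers Rspo2, Lmo3 and Neurod6 had ratios of 1.07, 1.04 and 1.07. Gad1, which makes GABA, had 9621 scaled counts in EE, 8623 in ER and 8456 in SH, a ratio of 1.14 (1.105 to 1.17). Among markers of neighbouring tissue, Sim1 of the hypothalamus and medial amygdala had 10 reads in EE and 1 in SH, Avp had 3 reads in EE and 0 in SH, and Tcf7l2 of the thalamus had a ratio of 0.976. Ttr, the main transcript of choroid plexus, had 4 reads in EE, 0 in ER and 80 in SH. The meningeal markers Dcn and Col1a1 had ratios of 0.781 and 0.916, both with intervals that included 1. Of 15 measured genes of meninges and perivascular fibroblasts, 10 had a ratio above 1 and 5 below it. Among these, Dpp4 (2.26) and Col14a1 (1.99) were higher in EE and Igf2 (0.775) was lower, with intervals that excluded 1. Whether differences in the punched tissue had a part in the ratios below was not tested.

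Most genes differed little. The median log2 ratio was -3.58e-05, the middle 50% of genes lay between -0.0729 and 0.0717, and 91.4% of genes were within 1.2-fold and 99.0% within 1.5-fold. A ratio of at least 1.2-fold with an interval that excluded 1 is called past the 1.2-fold rule below. It was met by 372 genes that were higher in EE (2.78%) and 313 that were lower (2.34%). At 1.5-fold the numbers were 78 higher (0.583%) and 54 lower (0.403%). Of the 12236 genes with an ordinary symbol, 318 were higher and 256 lower by the 1.2-fold rule, and none differed by 4-fold, whereas 15 of the 1150 rows with clone, locus or damaged names did.

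The share of genes past the rule depended on level. Among genes with a mean of 100 to 300 scaled counts, 7.33% were higher in EE and 5.6% lower, and their intervals typically reached 1.234-fold to either side. Among the 425 genes with a mean of 10000 or more, 0.235% were higher and 0.706% lower, with intervals of 1.022-fold. Read numbers therefore limited the smaller ratios of weakly expressed genes, while above a mean of 1000 a ratio of 1.2-fold lay well outside counting error. Of the 5792 genes above that level, 30 were higher (0.518%) and 44 lower (0.76%).

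**Figure D1:**
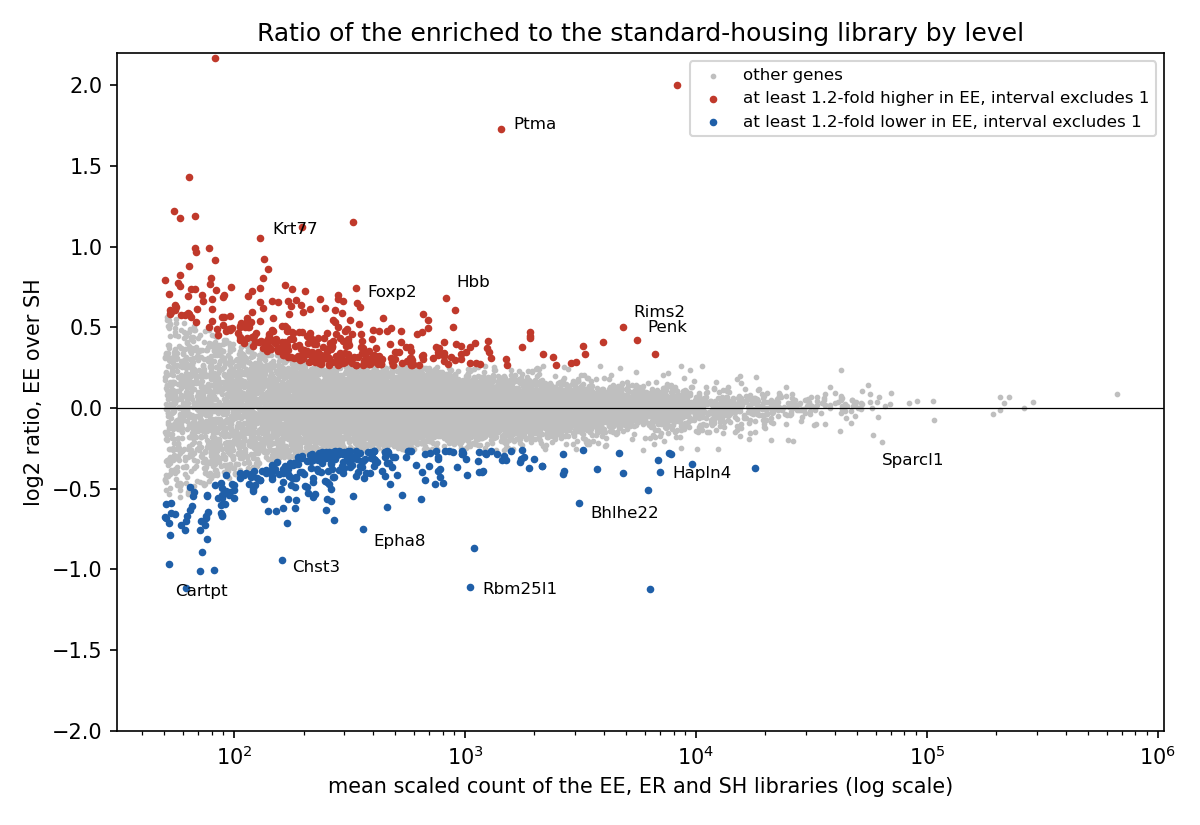
Log2 ratio of the EE over the SH library against the mean scaled count of the EE, ER and SH libraries (log axis), 1 point per gene, with genes past the 1.2-fold rule in red where higher in EE and in blue where lower. The cloud narrows as level grows, and 15 genes with clone, locus or damaged names that differed by at least 4-fold lie near or beyond the upper and lower edges.

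Among genes with a mean of at least 1000, those with the clearest rise in EE included synaptic and G protein signalling genes. Rims2, a scaffold of the presynaptic active zone that prepares vesicles for release, had 5472 scaled counts in EE, 5125 in ER and 3873 in SH, a ratio of 1.41 (1.36 to 1.47). Baiap3, a Munc13 relative that acts in dense-core vesicle traffic, had 2295 scaled counts in EE, 1774 in ER and 1687 in SH, a ratio of 1.36 (1.28 to 1.45). ER stood close to SH for Baiap3 and close to EE for Rims2. Rgs4, which shortens signalling by Gi- and Gq-coupled receptors, had 7585 scaled counts in EE, 6420.5 in ER and 6023 in SH, a ratio of 1.26 (1.22 to 1.303). Pcp4, a calmodulin-binding peptide, had 1983 scaled counts in EE, 1775 in ER and 1524 in SH, a ratio of 1.302 (1.22 to 1.39). Both stood in the order EE, ER, SH.

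Ephb6, an Eph receptor without kinase activity, had 1487 scaled counts in EE, 1162 in ER and 1115 in SH, a ratio of 1.33 (1.23 to 1.44), so that ER and SH were alike and EE stood alone. Mgst3, a microsomal glutathione S-transferase, had 4184 scaled counts in EE, 4488 in ER and 3152 in SH, a ratio of 1.33 (1.27 to 1.39), and here SH stood alone below EE and ER. Ptma, which encodes prothymosin alpha and has many processed copies in mammalian genomes, had 1634 scaled counts in EE, 2183 in ER and 492 in SH. Its ratio of 3.32 (2.9996 to 3.68) is uncertain because reads can be split between copies. The alpha-globin genes Hba-a1 and Hba-a2, near-identical copies, had ratios of 1.39 and 1.32.

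The genes of this level with the clearest fall in EE included a neuronal transcription factor and a matrix gene. Bhlhe22, a basic helix-loop-helix factor of excitatory neuron development, had 2489.6 scaled counts in EE, 3167 in ER and 3743 in SH, a ratio of 0.665 (0.632 to 0.700). Hapln4, a link protein that fastens brevican to hyaluronan in perineuronal nets, had 5950.1 scaled counts in EE, 7165 in ER and 7836 in SH, a ratio of 0.759 (0.734 to 0.786). In both, ER lay between EE and SH. Clasp1, which stabilises microtubule ends, had 4315 scaled counts in EE, 4447 in ER and 5701 in SH, a ratio of 0.757 (0.727 to 0.788). Crym, a cytosolic thyroid hormone-binding protein, had 3195 scaled counts in EE, 3849.8 in ER and 4151 in SH, a ratio of 0.770 (0.734 to 0.807). Csf1, a ligand of the receptor that maintains microglia, had 1018 scaled counts in EE, 1179 in ER and 1343 in SH, a ratio of 0.758 (0.698 to 0.824). All these genes were lowest in EE.

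Falls of similar size were seen in Sertm1 and Vstm2l, which encode membrane or secreted proteins. Sertm1 had 2259 scaled counts in EE, 2718 in ER and 3000.5 in SH, a ratio of 0.753 (0.712 to 0.796). Vstm2l had 2399.7 scaled counts in EE, 2480.4 in ER and 3142 in SH, a ratio of 0.764 (0.724 to 0.806). ER was near SH for Sertm1 and near EE for Vstm2l. Rtel1, a helicase that protects telomeres, and Tmem150c had ratios of 0.749 and 0.774. Rbm25l1, a relative of a splicing factor, had 748 scaled counts in EE, 793 in ER and 1616 in SH, and its ratio of 0.462 (0.423 to 0.505) is uncertain because its reads may be shared with a similar gene.

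Among all genes past 1.5-fold, those with intervals farthest from 1 had mostly fewer reads. Eya2, a phosphatase and transcriptional partner of sine oculis homeobox factors, had 194 scaled counts in EE, 109 in ER and 103 in SH, a ratio of 1.89 (1.48 to 2.43). Six3, a homeobox factor that belongs to that family and marks striatal neurons, had 186 scaled counts in EE, 134 in ER and 103 in SH, a ratio of 1.81 (1.42 to 2.33). Both were highest in EE, and the ER value of each was nearer to SH. Krt77 and Krt71, keratins known from skin and hair, had ratios of 2.08 and 1.598. Another keratin, Krt2, was lower by 1.2-fold but not 1.5-fold, at 0.756 (0.641 to 0.890). Gcnt2, a glycosyltransferase, had a ratio of 1.66. On the lower side, Thpo, the platelet growth factor thrombopoietin, had 362 scaled counts in EE, 462 in ER and 554 in SH, a ratio of 0.654 (0.570 to 0.748). Trpc7, a diacylglycerol-gated cation channel, had 147 scaled counts in EE, 176 in ER and 226 in SH, a ratio of 0.649 (0.523 to 0.805). Perp, a desmosomal protein and p53 target, had a ratio of 0.646.

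Genes were then grouped into 101 lists by function. Of the 90 lists with at least 10 measured genes, 73 had a median log2 ratio between -0.05 and 0.05, 11 had a median of at least 0.05 and 6 had a median of -0.05 or lower. With every gene above a mean of 1 the numbers were 72, 13 and 5, so lists near these limits are not told apart from those beyond them. Over all genes 6691 had a ratio above 1 and 6695 below it. The counts past the 1.2-fold rule in each list below stand beside 2.78% higher and 2.34% lower over all genes.

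**Figure D2:**
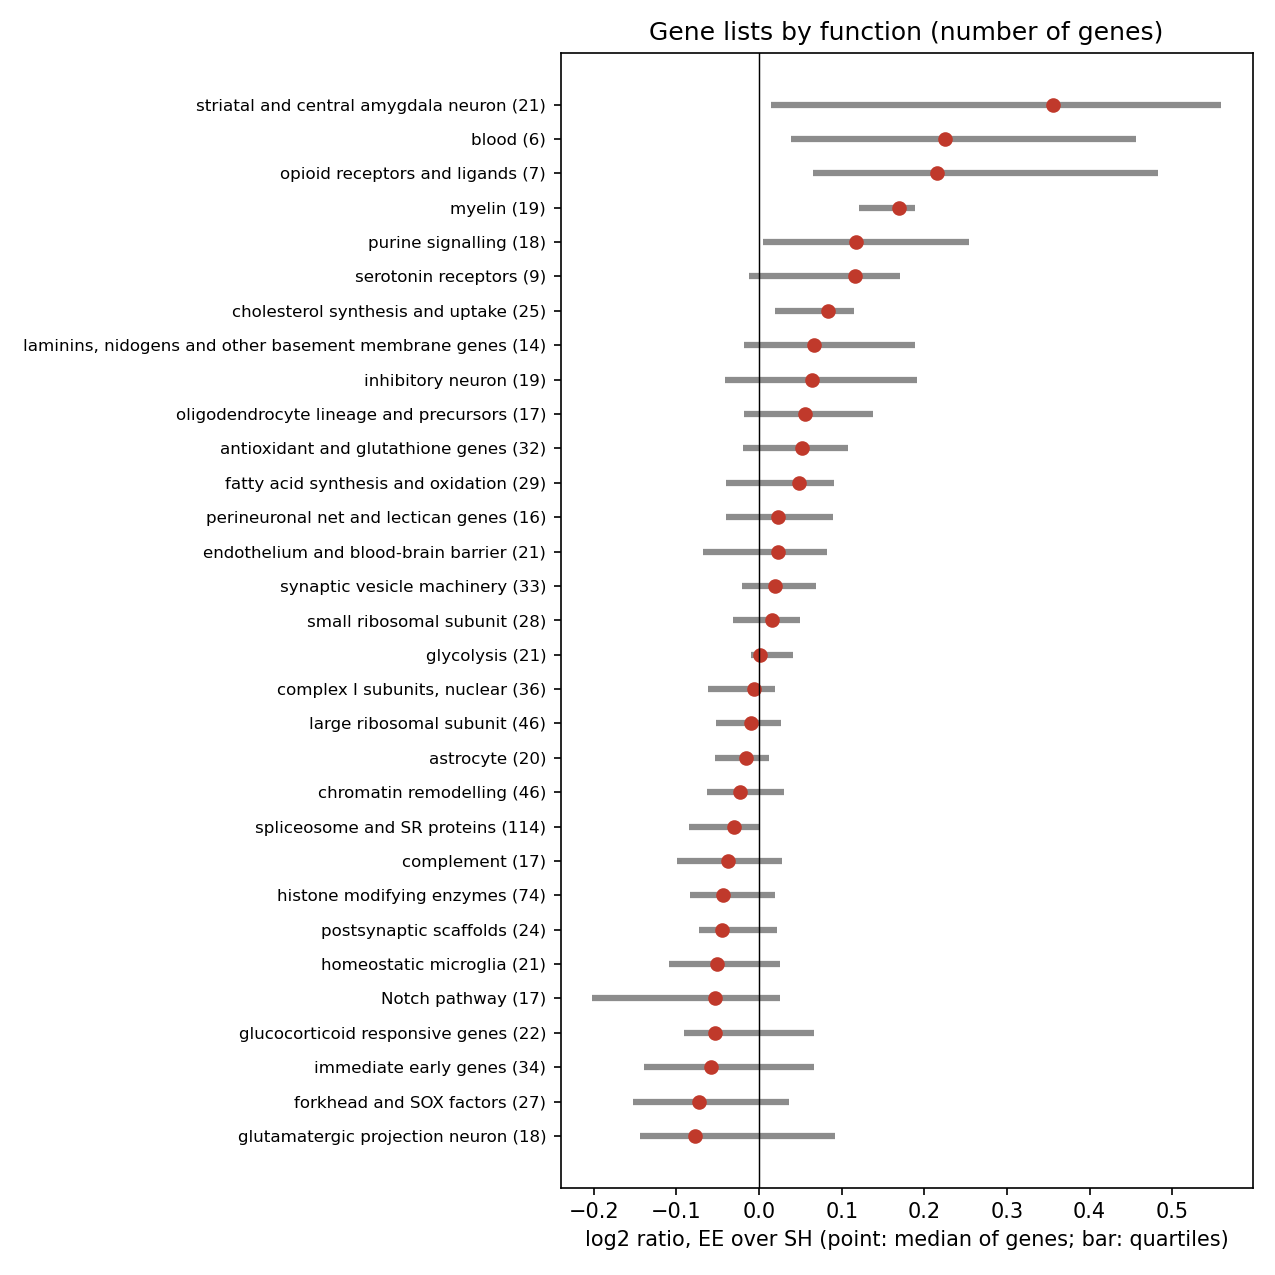
Median log2 ratio of EE over SH (point) and quartiles (bar) of the genes of each list drawn, with the number of genes in brackets. The lists drawn are a selection of the 101, and some have fewer than 10 genes. Striatal, blood, opioid and myelin lists stand farthest to the right, and glutamatergic projection neuron, forkhead and SOX, and immediate early genes farthest to the left, within 0.1 of 0.

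Genes of striatal and central amygdala neurons formed the list with the highest median. Of 21 genes, 18 had a ratio above 1 and 3 below it, 10 were higher by the 1.2-fold rule and 0 lower, and the median log2 ratio was 0.356. Rgs9, which ends dopamine and opioid receptor signals in striatal neurons, had 366 scaled counts in EE, 278 in ER and 263 in SH, a ratio of 1.39 (1.18 to 1.64). Adora2a, an adenosine receptor of indirect-pathway neurons, had 199.5 scaled counts in EE, 109.8 in ER and 135 in SH, a ratio of 1.47 (1.18 to 1.85). Drd2, the dopamine receptor of the same neurons, had 218 scaled counts in EE, 154 in ER and 145 in SH, a ratio of 1.5004 (1.21 to 1.87). The ER library was nearer to SH than to EE for Rgs9 and Drd2, and below SH for Adora2a.

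Genes known from striatal neurons did not move as one. Ppp1r1b and Chrm4, which striatal neurons also express, are outside the list but drawn with it, and were lower in EE. Ppp1r1b, the dopamine-regulated phosphatase inhibitor DARPP-32, had 3194 scaled counts in EE, 3367 in ER and 3681 in SH, a ratio of 0.868 (0.827 to 0.910). Chrm4, an inhibitory muscarinic receptor, had 1302 scaled counts in EE, 1539 in ER and 1603 in SH, a ratio of 0.812 (0.754 to 0.875). Drd1, the dopamine receptor of direct-pathway neurons, had 983 scaled counts in EE, 989.9 in ER and 974 in SH, a ratio of 1.01 (0.922 to 1.105). The ratio therefore differed between genes known from striatal neurons. Which cells the reads of Ppp1r1b and Chrm4 came from was not tested.

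**Figure D3:**
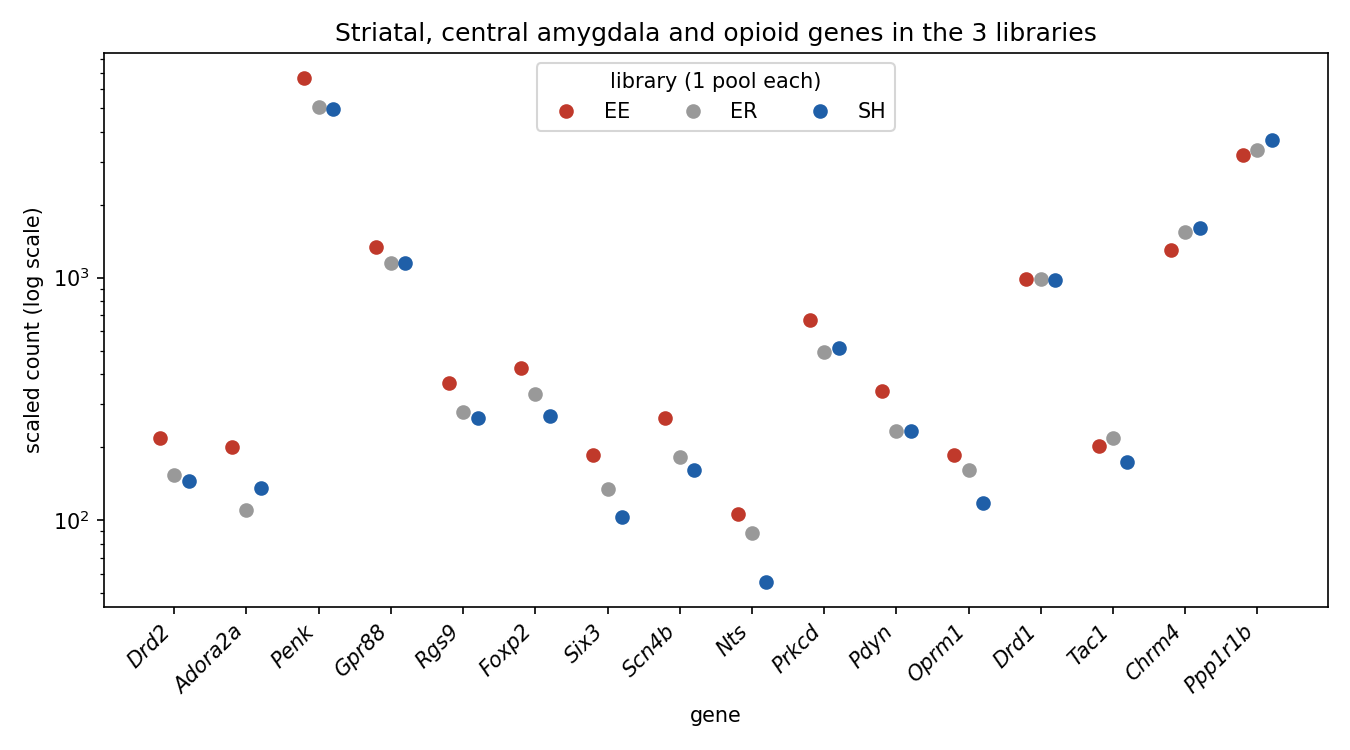
Scaled counts (log axis) of striatal, central amygdala and opioid genes in the EE (red), ER (grey) and SH (blue) libraries, 1 pool of 10 rats each. The EE point is highest for Drd2, Adora2a, Penk, Rgs9, Six3, Pdyn and Oprm1, the 3 points of Drd1 nearly coincide, and the EE point is lowest for Chrm4 and Ppp1r1b.

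Opioid genes overlapped with that list through Penk and Pdyn. All 7 measured opioid genes had a ratio above 1, 3 of them past the 1.2-fold rule, and the median log2 ratio was 0.215. Pdyn, the precursor of dynorphins, had 339 scaled counts in EE, 233 in ER and 232 in SH, a ratio of 1.46 (1.23 to 1.74). Oprm1, the mu receptor, had 185 scaled counts in EE, 161 in ER and 118 in SH, a ratio of 1.57 (1.24 to 2.004). ER was level with SH for Pdyn and lay between EE and SH for Oprm1. Oprk1, the kappa receptor on which dynorphins act, had 325 scaled counts in EE, 346 in ER and 303 in SH, a ratio of 1.07 (0.913 to 1.26), and Pnoc, Oprl1 and Oprd1 likewise had intervals that included 1.

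Other peptide systems were uneven. Tac3, the precursor of neurokinin B, had 492 scaled counts in EE, 354 in ER and 353 in SH, a ratio of 1.396 (1.21 to 1.61). Tacr3, its receptor, had 566 scaled counts in EE, 468 in ER and 401 in SH, a ratio of 1.41 (1.24 to 1.61). Ligand and receptor were thus both higher in EE, with ER at the SH level for Tac3. Vipr2, a receptor for VIP and PACAP, had 199 scaled counts in EE, 250.3 in ER and 262 in SH, a ratio of 0.758 (0.626 to 0.916). Npb, the precursor of neuropeptide B, had 77.5 scaled counts in EE, 90.3 in ER and 111 in SH, a ratio of 0.701 (0.516 to 0.949). Of the 28 peptide precursors measured, 4 were higher and 2 lower by the 1.2-fold rule, and of 20 receptors 1 was higher and 1 lower. The 14 peptide processing genes had a median log2 ratio of 0.0243 and none passed the rule, with Cpe, the carboxypeptidase that trims prohormones, at 1.02.

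Many peptide genes respond to cyclic AMP through a palindromic element, so the promoters of this list were searched for its letters, TGACGTCA, in the 250 bases before and 50 after each RefSeq start (GRCr8 build). A palindrome reads alike on both strands. It was found in 612 of 33469 promoters (1.83%). In the list a gene was counted if any of its promoters matched, so that share is per gene, not per promoter. Of the 50 names on the list 34 had a promoter at hand, and the element was found in 5 of them: Cartpt, Scg2, Sst, Ucn and Vgf. Cartpt, the precursor of CART peptides, and Scg2, the granin precursor of secretoneurin, are shown because they had the lowest and the highest ratio of the measured genes among these, with the element in capitals. Cartpt lies at chr2:32991186-32991485 (minus strand), with the element starting 142 bases before the start. Scg2 lies at chr9:88256817-88257116 (minus strand), with the element starting 123 bases before it.
Cartpt: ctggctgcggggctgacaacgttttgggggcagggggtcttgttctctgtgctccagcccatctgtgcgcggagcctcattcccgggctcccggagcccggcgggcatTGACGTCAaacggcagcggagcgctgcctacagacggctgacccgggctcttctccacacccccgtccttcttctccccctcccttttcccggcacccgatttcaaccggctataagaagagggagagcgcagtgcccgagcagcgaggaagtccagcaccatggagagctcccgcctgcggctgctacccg
Scg2: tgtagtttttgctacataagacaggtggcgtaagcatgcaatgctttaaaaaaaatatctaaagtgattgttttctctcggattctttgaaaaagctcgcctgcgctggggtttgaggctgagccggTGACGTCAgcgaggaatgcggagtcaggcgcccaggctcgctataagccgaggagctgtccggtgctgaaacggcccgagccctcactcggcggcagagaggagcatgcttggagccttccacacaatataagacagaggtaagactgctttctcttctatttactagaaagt
Cartpt had 54.8 scaled counts in EE, 48.2 in ER and 111 in SH, a ratio of 0.496 (0.350 to 0.694). Scg2 had 7767 scaled counts in EE, 7031 in ER and 6754 in SH, a ratio of 1.15 (1.11 to 1.19). Sst, the somatostatin precursor of interneurons, had a ratio of 1.08 and Vgf, a granin-like precursor, had 1.04. Genes with the same letters in the promoter thus differed in opposite directions, and a match is a description of sequence, not evidence of use. Scg2, Sst and Vgf were named for the element after their values were seen.

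Glutamate and GABA neuron lists leaned in opposite directions by small amounts. Of 18 genes of glutamatergic projection neurons, 7 had a ratio above 1 and 11 below it, with a median log2 ratio of -0.078. An interval above 1 was found in 6 of them and below 1 in 9, and the summed ratio was 0.972 (0.965 to 0.978). Only Slc17a6 passed the 1.2-fold rule. Slc17a6, the vesicular glutamate transporter of thalamic and other subcortical neurons, had 616 scaled counts in EE, 533 in ER and 442 in SH, a ratio of 1.39 (1.23 to 1.58). Slc17a8, a vesicular glutamate transporter of scattered interneurons and serotonin neurons, had 112 scaled counts in EE, 132 in ER and 77.7 in SH, a ratio of 1.44 (1.06 to 1.95). Both ratios lay well above that of Slc17a7. Of 19 inhibitory neuron genes, 12 had a ratio above 1 and 7 below it, with a median log2 ratio of 0.0637. An interval above 1 was found in 8 of them and below 1 in 3, and the summed ratio was 1.05 (1.038 to 1.062). By the 1.2-fold rule 0 were higher and 2 were lower. These were Dlx1 and Dlx2, homeobox factors that specify GABA neurons. Dlx1 had 637 scaled counts in EE, 702 in ER and 772 in SH, a ratio of 0.825 (0.741 to 0.918). Dlx2 had 91 scaled counts in EE, 79 in ER and 129 in SH, a ratio of 0.703 (0.530 to 0.928).

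Among receptors, 2 of 7 metabotropic glutamate receptors were higher by the 1.2-fold rule and 1 lower. Grm2, an inhibitory receptor outside the synaptic cleft, had 2722 scaled counts in EE, 2325 in ER and 2183 in SH, a ratio of 1.25 (1.18 to 1.32). Grm8, a presynaptic inhibitory receptor, had 1149.7 scaled counts in EE, 966 in ER and 903 in SH, a ratio of 1.27 (1.16 to 1.39). Grm6, known from retinal bipolar cells, had 207 scaled counts in EE, 271 in ER and 309 in SH, a ratio of 0.670 (0.558 to 0.803). The AMPA, NMDA and kainate subunits had a median log2 ratio of -0.0139, with Grik1, a kainate subunit, the 1 gene of 16 past the rule, at 0.789. None of the 12 GABA-A subunits passed it, and their median was 0.0107.

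Purine signalling genes and serotonin receptors had medians above 0. Of 18 purine signalling genes, 13 had a ratio above 1 and 5 below it, 3 were higher by the rule, and the median log2 ratio was 0.117. Adora1, the main inhibitory adenosine receptor of the brain, had 2745 scaled counts in EE, 2412 in ER and 2284 in SH, a ratio of 1.202 (1.14 to 1.27). Slc29a1, which carries adenosine across membranes, had 280.2 scaled counts in EE, 245 in ER and 226 in SH, a ratio of 1.24 (1.04 to 1.49). With Adora2a these were the 3 genes past the rule, which Adora1 left under scaling by total reads. The 9 serotonin receptors, fewer than the 10 genes of the lists counted above, had a median of 0.116. Of them 6 had a ratio above 1 and 3 below it, but only 1 had an interval above 1 and 1 had an interval below. The 1 gene past the rule, Htr7, a receptor that raises cyclic AMP, was lower. It had 56.9 scaled counts in EE, 80 in ER and 90.6 in SH, a ratio of 0.627 (0.441 to 0.887). Cnr1, the cannabinoid receptor of presynaptic terminals, had 8228 scaled counts in EE, 7305 in ER and 7089 in SH, a ratio of 1.16 (1.12 to 1.198).

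Presynaptic and postsynaptic genes differed in sign by small amounts. Of 33 synaptic vesicle genes, 20 had a ratio above 1 and 13 below it, 4 were higher by the 1.2-fold rule and the median log2 ratio was 0.0192. These were Rims2, Unc13c, Sv2c and Syt2. Unc13c, a vesicle priming factor, had 774 scaled counts in EE, 690.4 in ER and 518 in SH, a ratio of 1.495 (1.34 to 1.68). Sv2c, a vesicle protein of striatal and pallidal neurons, had 337 scaled counts in EE, 269 in ER and 238 in SH, a ratio of 1.42 (1.19 to 1.68). Syt2, a fast calcium sensor of parvalbumin interneuron terminals, had 612 scaled counts in EE, 625 in ER and 494 in SH, a ratio of 1.24 (1.098 to 1.399). Of 24 postsynaptic scaffold genes, 9 had a ratio above 1 and 15 below it, none passed the rule and the median was -0.0454. Dlg4, which encodes PSD-95, had 24166 scaled counts in EE, 23683 in ER and 24841 in SH, a ratio of 0.973 (0.956 to 0.990).

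Ion channels were close to even. Of 71 potassium channel subunits, 3 were higher and 1 lower by the rule, beside 2.78% higher and 2.34% lower over all genes. Their median log2 ratio was -0.0082. Kcnk2, the mechanically gated leak channel TREK-1, had 932 scaled counts in EE, 795 in ER and 703 in SH, a ratio of 1.32 (1.199 to 1.46). Kcnv1, a silent modifier of voltage-gated channels, had 1677 scaled counts in EE, 1501 in ER and 1358 in SH, a ratio of 1.23 (1.15 to 1.33). ER was between EE and SH in both. None of the 4 HCN pacemaker channels passed the rule, and of 20 calcium channel subunits only Cacng5 did, at 1.201, and not under scaling by total reads.

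Myelin genes moved together. All 19 had a ratio above 1, 15 of them with an interval that excluded 1, against 10.7% of all genes with an interval above 1 and 10.4% with one below. That share grows with level, intervals on either side of 1 being found in 38.3% of genes with a mean of 3000 to 10000 and in 59.1% of those above. Ermn alone passed the 1.2-fold rule. The median log2 ratio was 0.169, and the summed scaled count was 152473 in EE, 147740 in ER and 135590 in SH, a ratio of 1.125 (1.116 to 1.133). Ermn, a cytoskeletal protein of late oligodendrocytes, had 1463 scaled counts in EE, 1256 in ER and 1180.1 in SH, a ratio of 1.24 (1.15 to 1.34). Mbp, a main protein of compact myelin, had 57953 scaled counts in EE, 55549 in ER and 52614 in SH, a ratio of 1.101 (1.09 to 1.11). Mal, a sorting protein of myelin vesicles, had 4911 scaled counts in EE, 5058 in ER and 4131 in SH, a ratio of 1.19 (1.14 to 1.24). ER lay between EE and SH for Ermn and Mbp and slightly above EE for Mal. The 17 genes of the oligodendrocyte lineage and precursors had a median of 0.0551, with 11 above 1 and 6 below.

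Cholesterol genes, which supply the main lipid of myelin as well as neuronal membranes, had smaller ratios, mostly above 1. Of 25 genes, 21 had a ratio above 1 and 4 below it, 9 had an interval above 1 and 0 below, none passed the 1.2-fold rule, and the median log2 ratio was 0.0831. Fdft1, which makes squalene, had 2947 scaled counts in EE, 2830.2 in ER and 2689.8 in SH, a ratio of 1.095 (1.04 to 1.16). Insig1, which holds the SREBP sterol sensor in the endoplasmic reticulum, had 2159 scaled counts in EE, 2241 in ER and 1923 in SH, a ratio of 1.12 (1.05 to 1.19). ER lay between EE and SH for Fdft1 and above EE for Insig1. Srebf2, the transcription factor that drives the pathway, had 7404 scaled counts in EE, 7242 in ER and 6986 in SH, a ratio of 1.06 (1.03 to 1.095). Fatty acid genes had a median of 0.0481 over 29 genes, with Fasn at 1.07 and none past the rule.

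**Figure D4:**
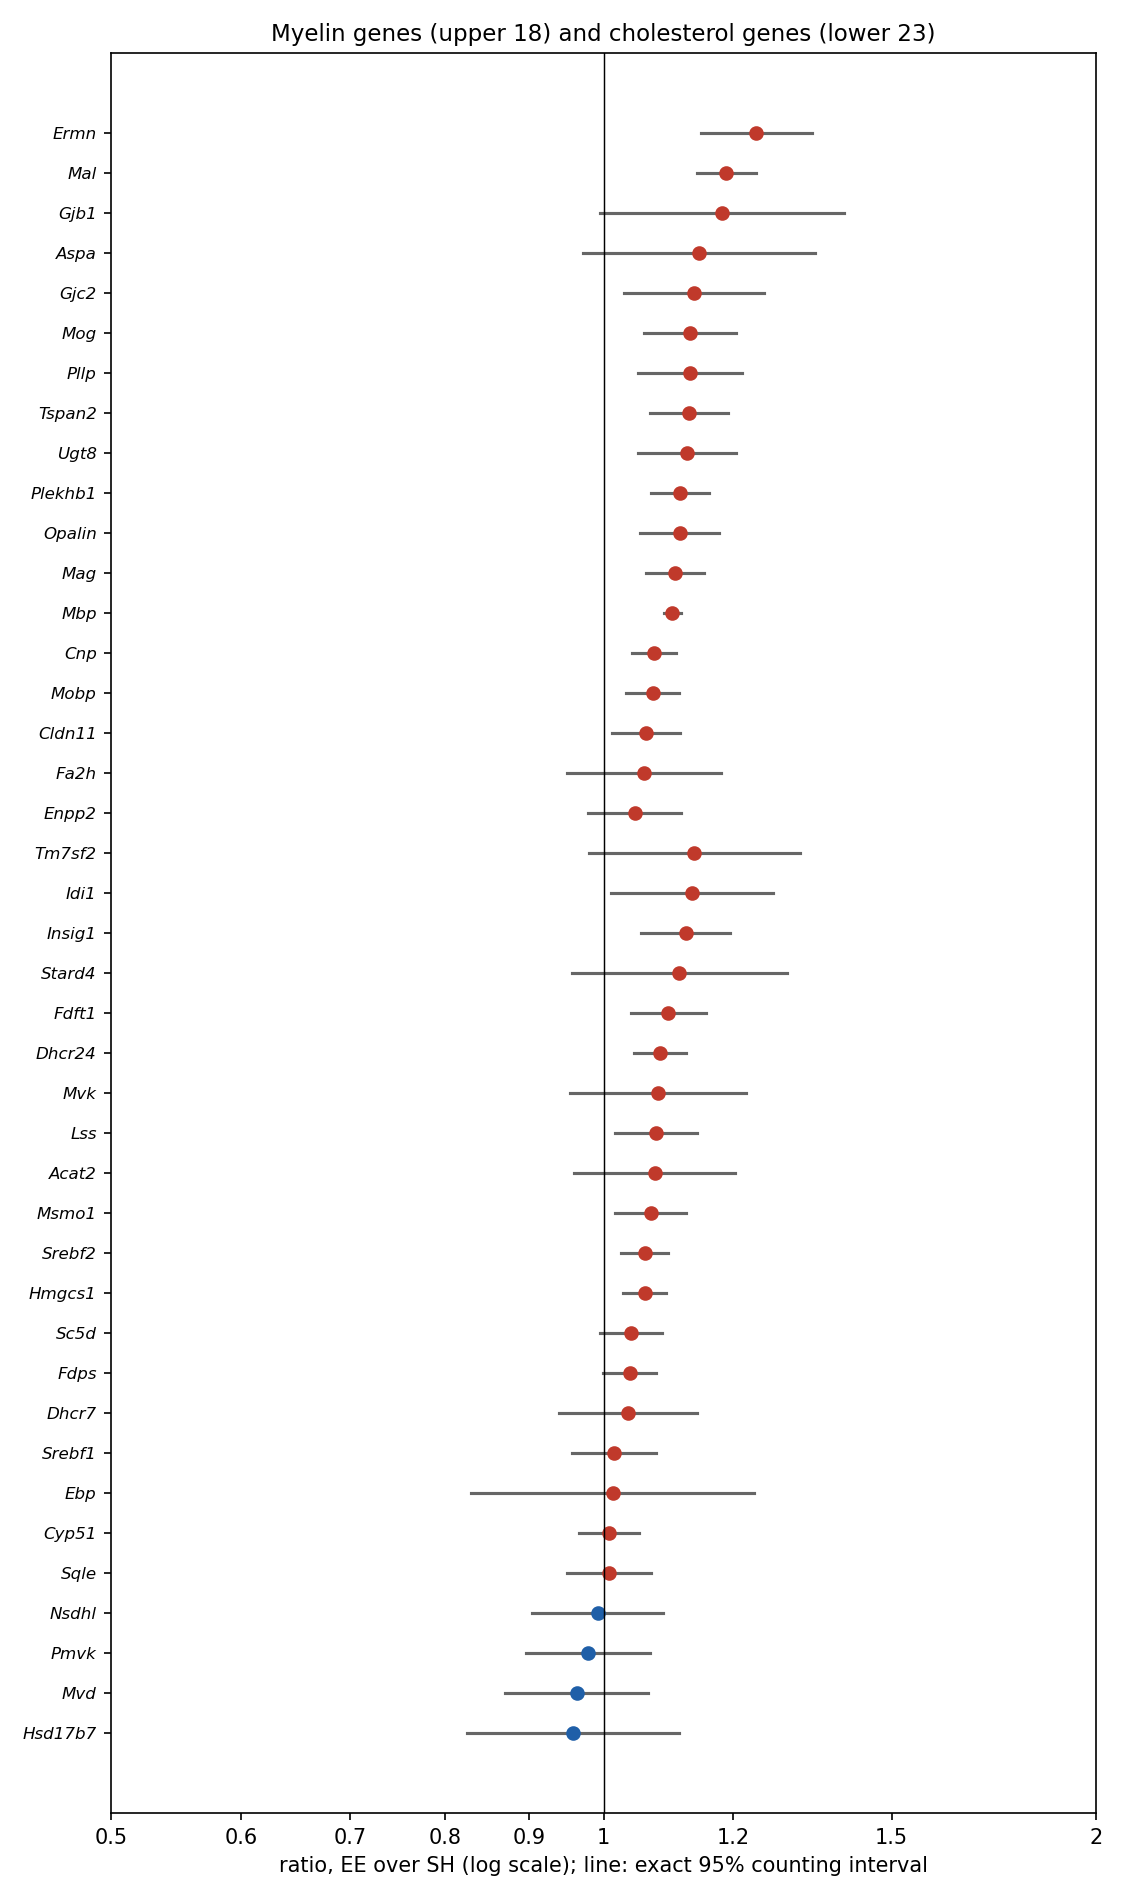
Ratio of EE over SH (log axis) for 18 myelin genes (upper rows) and 23 cholesterol synthesis and uptake genes (lower rows), with exact 95% counting intervals, red where the ratio is above 1 and blue where below. Every myelin gene drawn lies right of 1, from Ermn at 1.24 down, and 19 cholesterol genes do, while Nsdhl, Pmvk, Mvd and Hsd17b7 lie left of it.

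Astrocyte, microglial and vascular lists lay near 0. The medians were -0.0163 for 20 astrocyte genes, -0.0507 for 21 homeostatic microglial genes and 0.0231 for 21 genes of endothelium and the blood-brain barrier. Gpr34, a lysophospholipid receptor of microglia, had 447 scaled counts in EE, 406 in ER and 358 in SH, a ratio of 1.25 (1.08 to 1.44), whereas C1qa, the complement starter that microglia make, had 1545 scaled counts in EE, 1581 in ER and 1781 in SH, a ratio of 0.868 (0.809 to 0.930). Microglial genes thus went both ways. Irf8, a transcription factor of microglia, had a ratio of 1.25, P2ry12 0.886 and Cx3cr1 1.02. Esam, an adhesion molecule of endothelial junctions, had 478 scaled counts in EE, 421 in ER and 381 in SH, a ratio of 1.25 (1.09 to 1.44). Of 6 blood genes all had a ratio above 1, and the 3 globins passed the 1.2-fold rule, with Hbb at 1.605. The part of red cell content in other ratios was not tested.

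Extracellular matrix genes differed from gene to gene within each family. Of 16 perineuronal net and lectican genes, 10 had a ratio above 1 and 6 below it, with a median log2 ratio of 0.0233, 1 gene higher by the rule and 1 lower. The lower gene was Hapln4, and the summed scaled count of the list was 40628 in EE, 41420 in ER and 43196 in SH, a ratio of 0.941 (0.928 to 0.953). Hapln1, the more widely expressed link protein, had 1313 scaled counts in EE, 1189 in ER and 1200.0 in SH, a ratio of 1.09 (1.01 to 1.18). Bcan, the brevican that Hapln4 binds, had 8877 scaled counts in EE, 8509 in ER and 9024 in SH, a ratio of 0.984 (0.955 to 1.01). Ncan and Tnr, further net components, had ratios of 1.00 and 1.01. The higher gene was Acan, the aggrecan core protein, with 131 scaled counts in EE, 111 in ER and 92.6 in SH and a ratio of 1.42 (1.08 to 1.87), so the aggregate-forming genes of the net differed in both directions.

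Several secreted matrix genes were lower in EE and others were level or higher. Sparcl1, the astrocyte protein hevin that promotes synapse formation, had 58199 scaled counts in EE, 65751 in ER and 67381 in SH, a ratio of 0.864 (0.854 to 0.873). Sparc, its relative, which antagonises hevin, had 16064 scaled counts in EE, 16712 in ER and 18352 in SH, a ratio of 0.875 (0.857 to 0.894). Both were below SH by less than 1.2-fold but far outside counting error. They carried the basement membrane list, whose summed ratio was 0.884 (0.876 to 0.892) although 10 of its 14 genes had a ratio above 1. Spon1, a secreted protein of axon guidance, had 7041 scaled counts in EE, 7833 in ER and 8587 in SH, a ratio of 0.820 (0.794 to 0.846). Matn2, a filament-forming matrilin, had 1524 scaled counts in EE, 1759 in ER and 1925 in SH, a ratio of 0.792 (0.739 to 0.848). Thbs3, a thrombospondin, had 557 scaled counts in EE, 672 in ER and 733 in SH, a ratio of 0.760 (0.679 to 0.851). Its relative Thbs1, which astrocytes release to promote synapses, was higher in EE, with 246 scaled counts in EE, 214 in ER and 178 in SH and a ratio of 1.38 (1.13 to 1.69). Sparcl1, Sparc and Spon1 were named after their values were seen.

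Collagens split in the same way. Of 31 chains 4 were higher and 2 lower by the 1.2-fold rule, and the median log2 ratio was 0.0137. Col11a1, a chain of fibrils, had 735 scaled counts in EE, 582 in ER and 536 in SH, a ratio of 1.37 (1.22 to 1.54). Col23a1, a transmembrane collagen, had 667 scaled counts in EE, 782 in ER and 897 in SH, a ratio of 0.743 (0.671 to 0.823). Col24a1, a minor fibril chain, had 139.6 scaled counts in EE, 167 in ER and 206 in SH, a ratio of 0.677 (0.541 to 0.845). Nid1, a linker of basement membranes, had 389 scaled counts in EE, 371 in ER and 299.7 in SH, a ratio of 1.297 (1.11 to 1.51). Of 38 metalloproteinases and inhibitors, 13 had a ratio above 1 and 25 below it, but the 1 gene past the rule was higher. Adamts15, an enzyme that cleaves versican, had 344 scaled counts in EE, 304 in ER and 229 in SH, a ratio of 1.503 (1.27 to 1.79).

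Enzymes that build and sulphate glycosaminoglycan chains had 3 genes higher and 1 lower out of 43, beside 2.78% higher and 2.34% lower over all genes, with a median of 0.00579. Xylt1, an enzyme that adds the first sugar of chondroitin and heparan sulphate chains, had 902 scaled counts in EE, 831 in ER and 712 in SH. Its ratio was 1.27 (1.15 to 1.3998). Hs3st1 and Ndst3, sulphotransferases of heparan sulphate, had ratios of 1.39 and 1.26. Chst3, which places 6-sulphate on chondroitin, had 129 scaled counts in EE, 107 in ER and 248 in SH, a ratio of 0.521 (0.417 to 0.649).

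**Figure D5:**
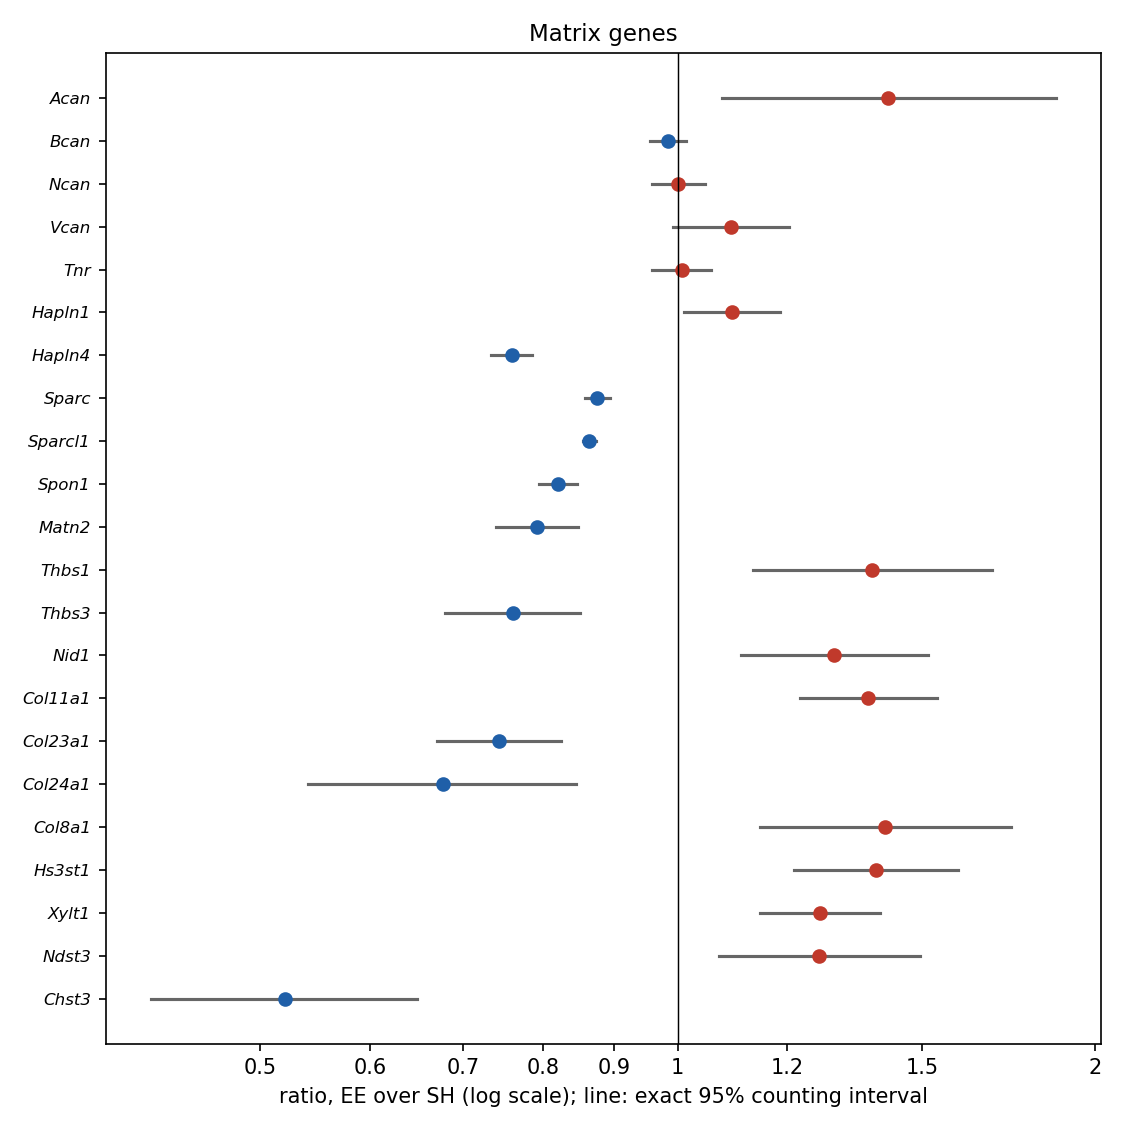
Ratio of EE over SH (log axis) of matrix genes with exact 95% counting intervals, red where above 1 and blue where below. Hapln4, Sparc, Sparcl1, Spon1, Matn2, Thbs3, Col23a1, Col24a1 and Chst3 lie left of 1, while Bcan, Ncan and Tnr lie at 1 within their intervals.

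Adhesion and guidance families held single genes past the rule. Of 18 cadherins, 1 was higher and 3 lower. Cdh13, a cadherin anchored by lipid, had 4150.1 scaled counts in EE, 4712 in ER and 5037 in SH, a ratio of 0.824 (0.790 to 0.859). Sema3e, a secreted semaphorin that acts through plexin D1, had 348 scaled counts in EE, 330.3 in ER and 248 in SH, a ratio of 1.41 (1.19 to 1.66), whereas Nrp1, a receptor of other class 3 semaphorins, had 890.2 scaled counts in EE, 952 in ER and 1069.5 in SH, a ratio of 0.832 (0.760 to 0.911), which left the rule under upper quartile scaling. Epha8, an Eph receptor, had 280.2 scaled counts in EE, 328 in ER and 472 in SH, a ratio of 0.594 (0.509 to 0.691). Cntnap5c, a Caspr family member, had a ratio of 1.35, and Itga7, a laminin-binding integrin, had 0.830, outside the rule under upper quartile scaling.

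Growth factor and developmental pathways were mixed. Gfra2, the neurturin receptor, had 560.4 scaled counts in EE, 419 in ER and 402 in SH, a ratio of 1.39 (1.22 to 1.59). Tgfa, an EGF receptor ligand, had 602 scaled counts in EE, 531 in ER and 453 in SH, a ratio of 1.33 (1.17 to 1.505). Both were higher in EE. Igf2, a growth factor made mainly by meninges and choroid plexus in adult brain, had 398 scaled counts in EE, 533 in ER and 514 in SH, a ratio of 0.775 (0.677 to 0.886), and Igfbp2, which binds it, had 109 scaled counts in EE, 96.4 in ER and 66.7 in SH, a ratio of 1.63 (1.19 to 2.24). Of 17 Notch pathway genes, 5 had a ratio above 1 and 12 below it, with a median log2 ratio of -0.0532. The 2 past the rule, Hes1 and Hey1, are transcriptional targets of Notch. Hes1 had 323 scaled counts in EE, 386 in ER and 402 in SH, a ratio of 0.802 (0.689 to 0.932). Hey1 had 422 scaled counts in EE, 462 in ER and 513 in SH, a ratio of 0.823 (0.721 to 0.938).

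Immediate early genes, which neuronal activity induces, had more ratios below 1 than above it. Of 34 immediate early genes 13 had a ratio above 1 and 21 below it, 3 were lower by the rule and none higher, and the median log2 ratio was -0.0579. Sik1, a kinase induced by cyclic AMP, had 176 scaled counts in EE, 242 in ER and 227 in SH, a ratio of 0.774 (0.631 to 0.948). Btg2, an antiproliferative gene, had 264 scaled counts in EE, 320.1 in ER and 319 in SH, a ratio of 0.827 (0.699 to 0.978). Nr4a2, an orphan nuclear receptor, had 1576 scaled counts in EE, 1808 in ER and 1891 in SH, a ratio of 0.833 (0.778 to 0.892), and left the rule under TMM and upper quartile scaling. The summed scaled count of the list was 42369 in EE, 41552 in ER and 42502 in SH, a ratio of 0.997 (0.983 to 1.01). Of 22 glucocorticoid responsive genes 8 had a ratio above 1 and 14 below, with a median of -0.0533, 3 had an interval above 1 and 3 below, and 1 was higher by the rule. None of the 21 circadian clock genes passed it.

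RNA processing and chromatin genes were shifted by a few percent. Of 114 spliceosome and SR protein genes 29 had a ratio above 1 and 85 below it, with a median log2 ratio of -0.0301, and 27 had an interval below 1 against 2 above. Over all genes 10.4% had an interval below 1 and 10.7% above, a share that grows with level. Of 74 histone modifying enzymes 22 had a ratio above 1 and 52 below, with a median of -0.0437. Of 46 chromatin remodelling genes 14 were above 1 and 32 below, with a median of -0.0232. Most ratios were within 1.2-fold, the rule being met by 1 gene in each direction, 1 lower gene and no gene in these lists. The lower histone gene was Kdm7a, a demethylase, with 221 scaled counts in EE, 285 in ER and 279.8 in SH and a ratio of 0.791 (0.659 to 0.948). The genomic span of a gene in RefSeq moved with the ratio too. In the 2999 genes with the shortest span the median log2 ratio was -0.0122, and in the 2997 with the longest it was 0.0151. Its part in the list medians was not tested.

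Energy and protein synthesis genes were nearly level. Nuclear complex I subunits had a median of -0.00663 over 36 genes, glycolysis 0.000577 over 21 genes, the tricarboxylic acid cycle 0.00156 over 20 genes and the proteasome 0.019 over 44 genes. Small ribosomal subunit genes had a median of 0.0151 over 28 genes and large subunit genes -0.0102 over 46 genes, and the 2 past the rule, Rpl38 and Rpl35a, belong to families with many processed copies. Translation factors had a median of 0.00408 over 60 genes with none past the rule. Mt-co1, the mitochondrially encoded catalytic subunit of complex IV, had 678217 scaled counts in EE, 678303 in ER and 638153 in SH, a ratio of 1.06 (1.06 to 1.07). Antioxidant genes had a median of 0.0523 over 32 genes. Gpx3, a secreted glutathione peroxidase, had 324 scaled counts in EE, 272 in ER and 224 in SH, a ratio of 1.44 (1.21 to 1.72), and Prdx4, a peroxiredoxin of the endoplasmic reticulum, had 344 scaled counts in EE, 299.5 in ER and 279.8 in SH, a ratio of 1.23 (1.05 to 1.45).

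Transcription factor families had single genes past the rule in both directions. Of 27 forkhead and SOX factors 10 had a ratio above 1 and 17 below it, with a median of -0.0732. Foxp2, a factor of striatal and intercalated amygdala neurons, had 423 scaled counts in EE, 332 in ER and 269.9 in SH, a ratio of 1.57 (1.34 to 1.83), and Sox12 had 208 scaled counts in EE, 248 in ER and 285 in SH, a ratio of 0.730 (0.606 to 0.877). Meis1, a homeobox factor, had 303 scaled counts in EE, 235.9 in ER and 219 in SH, a ratio of 1.38 (1.16 to 1.65). Tshz1, a zinc finger factor of intercalated cells, had 1018 scaled counts in EE, 866 in ER and 828 in SH, a ratio of 1.23 (1.12 to 1.35). Lhx2, a LIM homeobox factor of cortical progenitors, had 1078 scaled counts in EE, 976 in ER and 1351 in SH, a ratio of 0.798 (0.735 to 0.866). Foxp2 and Tshz1 were thus higher in EE, and Lhx2, like Bhlhe22, Dlx1 and Dlx2, was lower.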

How the data were processed

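Per the labels and the study's methods, RNA was extracted from BLA micropunches, equal amounts from 10 rats were pooled per group, and polyadenylated RNA was sequenced from a strand-keeping kit. The authors aligned reads with HISAT2 and scaled gene counts with DESeq2 size factors. The sources used here do not name versions, genome build or counting settings, so overlapping genes and near-identical copies stay uncertain. The deposited signal values are therefore scaled read counts, not length-corrected levels. Every value was a whole multiple of the worth of 1 read (1.0339 in EE, 1.0258 in ER and 0.995841 in SH; 100% whole within 0.001), which returned the reads. With 1 library per group a count test has no residual degrees of freedom and none was run.

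Ratios of EE over SH were given exact Clopper-Pearson 95% intervals from the reads, which cover counting error only, and the interval code was tested on simulated data. A gene was past the rule at 1.2-fold with an interval that excluded 1, with 1.5-fold as a larger size. Genes named were, among those with ordinary symbols, the 15 higher and 15 lower past 1.5-fold with bounds farthest from 1, the 10 higher and 10 lower of this kind above a mean of 1000, up to 4 per list and direction (or the 2 with the highest mean where none passed), and marker genes. Other names were chosen after their values were seen. These are the non-rule genes Ppp1r1b, Drd1, Oprk1, Pnoc, Oprl1, Oprd1, Nsdhl, Pmvk, Mvd, Hsd17b7, Fdft1, Insig1, Mal, Hapln1, Bcan, Ncan, Tnr, and those so marked in the text. Genes and lists were chosen with earlier results of these data known. Alternatives covered scaling, the level limit, the pseudocount and the rule. Otp, Oxt, Folr1 and Cldn5 were not analysed here, and 22 genes with damaged names were left unnamed. A few genes of the lists are counted but not reported here by name. Tools were Python 3.11.15, numpy 2.4.6, pandas 2.3.3, scipy 1.17.1, matplotlib 3.10.9, R 4.3.3 and edgeR 4.0.16 (TMM only). Promoters and spans came from RefSeq (GRCr8).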

Additional observations from a re-analysis of the deposited data

Results flagged for a closer look

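Genes outside the report's limits also held differences beyond counting error. Of 3389 protein-coding genes with a mean above 1 and under 50 scaled counts, 122 were at least 1.5-fold higher in EE with an interval that excluded 1, and 104 were lower. Ttr, the choroid plexus transcript, had 4.14 scaled counts in EE, 0 in ER and 79.7 in SH, a ratio of 0.0519 (0.0138 to 0.138). Ctxn3, a small membrane protein of the brain, had 73.4 scaled counts in EE, 27.7 in ER and 24.9 in SH, a ratio of 2.95 (1.85 to 4.86).

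Rows of other gene types with a mean of at least 50 also differed by 1.5-fold with an interval that excluded 1. They were 7 lincRNA, 4 miRNA, 18 processed pseudogene, 1 processed transcript, 7 pseudogene, 1 rRNA and 1 snoRNA genes, and 1 gene without a stated type. The pseudogene LOC688932 had 4939 scaled counts in EE, 88.2 in ER and 106.6 in SH, a ratio of 46.4 (38.3 to 56.7). No difference between rats can be given for any of these.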

How the results depend on the processing

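The main counts of 372 higher and 313 lower genes became 78 and 54 at 1.5-fold with the interval, and 621 and 530 at 1.2-fold without it. They stayed within 1.5 times the main counts under scaling by total reads, edgeR TMM or upper quartile, under other level limits and with ordinary symbols only. The scalings moved every log2 ratio by -0.00223, 0.000312 and 0.00665. Medians of the 90 lists changed sign in 7 lists with every gene above a mean of 1, in 2 at a mean of at least 100, in 5 under total reads, in 6 under upper quartile and in 0 under TMM or the pseudocounts. With every gene above a mean of 1 they went to -0.0145 for FGF, EGF and neuregulin genes (main 0.0463), 0.0209 for Wnt genes (main -0.0355), 0.0131 for motile cilia (main -0.0213) and -0.143 for cell division (main 0.033). The numbers of lists at 0.05 or more and at -0.05 or less were 11 and 6, and ranged from 11 to 13 and from 3 to 7. Of 267 named genes none turned in direction. Adora1 and Cacng5 left the 1.2-fold rule under total reads, Nr4a2 under TMM and upper quartile, and Itga7, Kcng2, Nrp1, Ntn3, Slc18a1 and Slc24a4 under upper quartile. No replicate could be left out, since each group had 1 library. No paired analysis was possible because the groups share only 1 replicate number, so the ratios have no replicate check. Read number limits genes with a mean under 100, whose intervals typically reached 1.412-fold to either side.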
